A study of Mus musculus with 10 samples.

Results

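The interferon-stimulated genes examined here are 42 listed genes whose transcription follows interferon signalling, from nucleic acid sensors and transcription factors to antiviral effectors, guanosine triphosphatases and chemokines. For a gene with several probe sets that name it alone, the brightest on average was kept. The array annotation gave 40 of the 42 genes at least 1 such probe set, out of 18193 genes in all. Isg15 and Ifi44 had none and were not analysed here. The data come from cultured mouse fibroblasts on Affymetrix Mouse430_2 arrays, with 5 arrays of normal lung fibroblasts and 5 of carcinoma-associated fibroblasts (CAF), each labelled as a biological replicate. Both kinds of cell were isolated from lungs, expanded in culture in medium with serum and antibiotics, plated overnight and lysed for RNA, and no interferon or other agent is named for either group. Strain, genotype, age, tumour model and number of animals are not given in the sources used here. The labels name no marker used to purify the cells, and they do not say whether an array holds cells of 1 animal or several.

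Interferons are secreted proteins that cells release when they sense viral or misplaced nucleic acid. Type I interferon binds the receptor chains Ifnar1 and Ifnar2 and, through Janus kinases, activates a complex of STAT proteins with Irf9 that binds the interferon-stimulated response element; interferon gamma acts through its own receptor and a STAT dimer that binds a shorter palindrome. The induced genes block viral entry, translation and replication, and some, such as Irf7 and Irf9, feed back on the response itself. Fibroblasts carry these receptors and are a classic cell type for studying the response.

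Promoters of the genes are shown first because the response element is a sequence feature that many of the members share. The genes were listed for following interferon signalling, which acts in part through this element. The shares below thus describe the list and are no independent support for it. RefSeq promoter windows (GRCm38.p6, 250 bases before to 50 after the start of transcription) were found for 30 of the 40 genes. The core of the interferon-stimulated response element, GAAA, any 2 bases and GAAA again, was searched on both strands, and it lay in the window of 16 of the 30 genes (53.3%). The same motif lay in 3.64% of the 14368 genes on the arrays that have a window, and in 3.99% of all 27025 genes in the table. The palindrome TTCNNNGAA, the shape of the site bound by STAT dimers, lay in 9 of the 30 genes (30%) against 8.57% of the genes on the arrays. The 6 sequences that follow belong to the members with values per array whose motif lies before the start, in order of their spread over the arrays. They run 5′ to 3′ along the gene's own strand, end at the base before the start of transcription, and show this core or its reverse complement in capitals.
Ifit1, chr19:34640639-34640888, plus strand: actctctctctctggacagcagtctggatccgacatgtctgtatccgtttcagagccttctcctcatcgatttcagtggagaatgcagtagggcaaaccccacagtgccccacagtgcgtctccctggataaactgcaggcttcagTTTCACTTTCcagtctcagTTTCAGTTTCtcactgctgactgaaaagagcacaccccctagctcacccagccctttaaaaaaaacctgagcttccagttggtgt
Trim30a, chr7:104465194-104465443, minus strand: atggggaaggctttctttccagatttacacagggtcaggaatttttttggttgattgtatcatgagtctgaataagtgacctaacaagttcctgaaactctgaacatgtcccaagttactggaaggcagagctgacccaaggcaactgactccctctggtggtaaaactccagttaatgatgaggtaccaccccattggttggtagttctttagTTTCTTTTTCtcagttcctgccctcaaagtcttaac
Bst2, chr8:71537473-71537722, minus strand: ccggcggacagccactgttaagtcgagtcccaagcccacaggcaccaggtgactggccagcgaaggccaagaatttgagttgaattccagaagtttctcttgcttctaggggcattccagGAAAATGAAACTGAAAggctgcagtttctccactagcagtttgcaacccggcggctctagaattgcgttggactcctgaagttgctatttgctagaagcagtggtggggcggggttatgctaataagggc
Igtp, chr11:58199306-58199555, plus strand: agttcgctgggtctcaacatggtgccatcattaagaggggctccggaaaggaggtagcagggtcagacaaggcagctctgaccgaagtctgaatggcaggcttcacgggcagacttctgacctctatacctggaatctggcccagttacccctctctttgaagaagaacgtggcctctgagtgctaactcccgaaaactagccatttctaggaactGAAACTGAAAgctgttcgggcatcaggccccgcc
Gbp2, chr3:142620413-142620662, plus strand: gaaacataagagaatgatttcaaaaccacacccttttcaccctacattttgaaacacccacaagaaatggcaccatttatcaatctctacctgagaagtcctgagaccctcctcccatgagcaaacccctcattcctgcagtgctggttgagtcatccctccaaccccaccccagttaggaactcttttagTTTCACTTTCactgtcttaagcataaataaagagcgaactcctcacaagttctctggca
Cxcl10, chr5:92348890-92349139, minus strand: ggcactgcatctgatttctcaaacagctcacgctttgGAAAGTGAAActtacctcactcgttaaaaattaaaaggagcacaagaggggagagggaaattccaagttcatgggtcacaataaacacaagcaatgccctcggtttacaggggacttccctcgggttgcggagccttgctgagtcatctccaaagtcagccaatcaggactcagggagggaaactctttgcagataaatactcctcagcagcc
Ifit1 held the motif at positions -104 and -85, counted from the start of transcription to the first base of each match. Bst2 held a pair of overlapping matches from position -130, which run as 1 block of capitals, and its TTCNNNGAA match began at position -136 and overlaps that block. The match lay at position -34 in Igtp, -36 in Trim30a, -59 in Gbp2 and -213 in Cxcl10. Ifih1, an RNA sensor, held its match after the start and is not shown. The windows of Irf7, Irf9, Oasl2, Xaf1 and Cxcl9 held no match, which says only that these letters are not in those 300 bases. A match is a description of the sequence and not a measured binding site.

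Levels are the deposited log2 values, so 1 unit is a doubling, and differences are CAF minus normal with the moderated standard error of a limma fit on all genes. A gene was called at a Benjamini-Hochberg adjusted p under 0.05. The table has no detection calls, so a low level cannot be told from background hybridisation, and in bulk cultures fewer cells of a type and less RNA per cell cannot be told apart. Over all genes the arrays correlated with each other at r between 0.926 and 0.989 within the normal group, between 0.977 and 0.990 within the CAF group and between 0.940 and 0.991 across the groups. Normal replicates 1 to 3 carry a code that starts with vs in their labels, while normal replicates 4 and 5 and all CAF replicates carry codes that start with ls. Their meaning is not given in the sources used here, so the comparison is also given against each set of normal arrays. The 18 macrophage markers were at high levels throughout, with a mean log2 level from 9.46 to 12.86 on the normal arrays and from 10.39 to 12.77 on the CAF arrays, beside 14 fibroblast markers at 12.09 to 13.72 and 11.88 to 13.21. The 9 neutrophil markers averaged 10.65 on normal replicate 3 and between 6.49 and 7.22 on the other 9 arrays, and their part in the values of that array was not tested.

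The interferon-stimulated genes varied together over the arrays, and 2 cultures carried the highest levels: normal replicate 3 and, among the CAF arrays, CAF replicate 3. The mean log2 level of the 40 genes was 8.42, 8.49, 9.21, 8.22 and 8.11 on normal replicates 1 to 5 and 8.07, 8.11, 8.59, 8.36 and 8.13 on CAF replicates 1 to 5. Normal replicate 3 was the highest of the 10 arrays for 25 of the 40 genes, against 16.5% of all genes. On that array all 40 genes lay above their normal-group mean, and the median gene lay 0.66 above its mean over the 10 arrays while the median over all genes was -0.01. CAF replicate 3 was the highest CAF array for 24 of the 40 genes, against 26.9% of all genes, and the highest of the 10 arrays for 5, against 11.2%. The spread of the genes was wider as well: the median SD over the 10 arrays was 0.46 for the 40 genes and 0.22 for all genes.

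**Figure D1:**
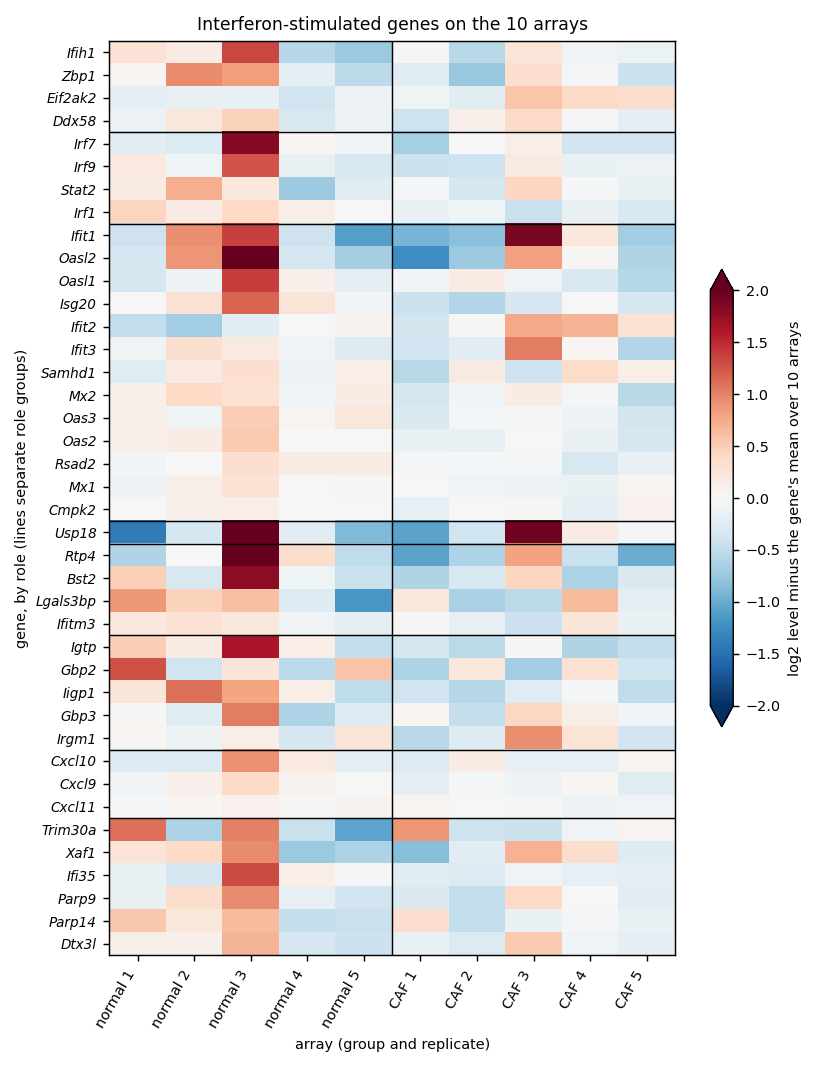
Level of each of the 40 interferon-stimulated genes on each array, as the log2 level minus the gene's mean over the 10 arrays (colour scale from -2 to 2), with genes ordered by role and the vertical line dividing 5 normal from 5 CAF arrays. Normal replicate 3 is the highest array for 25 of the 40 genes, and CAF replicate 3 is the highest CAF array for 24.

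No interferon-stimulated gene was called between the groups. Of the 40 genes, 0 passed an adjusted p under 0.05, while 137 of all 18193 genes did (0.753%), 102 of them higher (0.561%) and 35 lower (0.192%) in CAF. At an unadjusted p under 0.05 there were 10 of the 40 genes, 8 lower and 2 higher in CAF, and 22.3% of all genes (11.8% lower and 10.5% higher). The CAF mean was the lower one for 35 of the 40 genes, against 57.3% of all genes, and the median difference was -0.20 against -0.04 over all genes. The normal arrays differ here: against the 2 normal arrays with ls codes the median difference of the 40 genes was 0.01 with 20 genes on each side of 0, and against the 3 with vs codes it was -0.45. The sign differed between these comparisons for 18 of the 40 genes. The differences against the ls and the vs arrays were -0.021 and -0.93 for Bst2, -0.21 and -1.14 for Igtp, -0.39 and -1.30 for Rtp4, -0.17 and -1.06 for Iigp1, 0.16 and -1.27 for Oasl2, 0.37 and -0.56 for Parp14, and 0.76 and -0.49 for Trim30a. Without normal replicate 3 the median was -0.07, with 28 of the 40 genes below 0, and 6 of the 40 had an unadjusted p under 0.05 against 21.2% of all genes. Leaving out this array turned the sign of 7 of the 40 differences and made another 17 smaller by over 1.5 times.

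**Figure D2:**
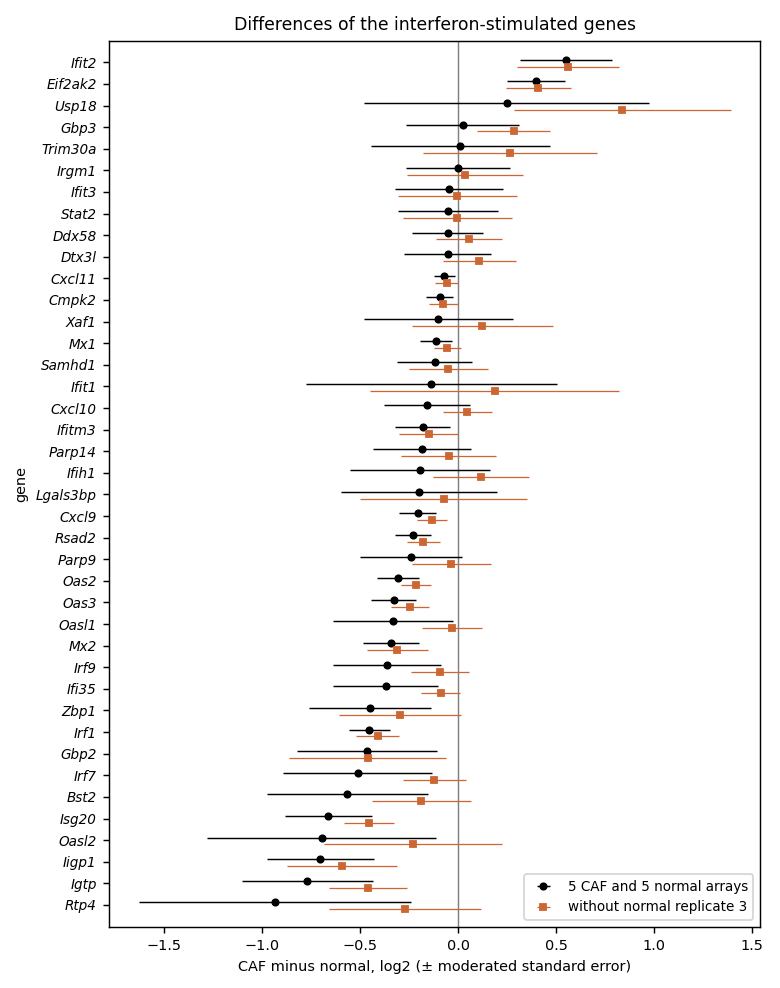
Log2 difference (CAF minus normal) of each interferon-stimulated gene, with its moderated standard error as a bar, from all 10 arrays (black circles) and without normal replicate 3 (orange squares). From all arrays 35 of the 40 genes lie below 0, and without normal replicate 3 there are 28.

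Among the 4 sensors, which detect foreign or misplaced nucleic acid, 0 were called, and the differences ran from -0.45 to 0.40. Ifih1, which senses long double-stranded RNA, read 8.16, 8.04, 9.21, 7.30 and 7.13 on normal replicates 1 to 5 and 7.90, 7.33, 8.11, 7.78 and 7.76 on CAF replicates 1 to 5. Its highest value was on normal replicate 3, its lowest on normal replicate 5, and the CAF values all lay between them (difference -0.19 ± 0.36, adjusted p = 0.776). Zbp1, a sensor of left-handed nucleic acid that can trigger necroptosis, read 7.90, 8.79, 8.70, 7.67 and 7.33 in normal and 7.63, 7.09, 8.19, 7.82 and 7.42 in CAF cells. Here normal replicate 2 was highest, just above normal replicate 3, and CAF replicate 3 was the highest CAF array (-0.45 ± 0.31, adjusted p = 0.414). Ddx58, the RNA sensor RIG-I, had its highest normal value on replicate 3 and its highest CAF value on replicate 3, with a difference of -0.05 ± 0.18. Eif2ak2, the kinase PKR that halts translation on binding double-stranded RNA, was the member of this group with the higher CAF mean, 9.58 against 9.18, and its difference of 0.40 ± 0.15 had an adjusted p of 0.162.

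The 4 transcription factors all had a lower CAF mean, and 0 were called. Irf7, the interferon-induced factor that drives interferon alpha genes, read 8.06, 7.99, 10.08, 8.28 and 8.18 on the normal arrays and 7.59, 8.25, 8.40, 7.89 and 7.88 on the CAF arrays. A single value, that of normal replicate 3, stood above the other 9, which span 7.59 to 8.40. The difference was -0.51 ± 0.38 (adjusted p = 0.448) with all arrays and -0.12 without normal replicate 3. Irf9, the DNA-binding partner of the STAT complex, read 9.12, 8.85, 10.18, 8.79 and 8.62 in normal and 8.51, 8.52, 9.11, 8.79 and 8.82 in CAF cells. Both groups had their highest Irf9 value on replicate 3, and they overlapped (-0.36 ± 0.28, adjusted p = 0.460; -0.095 without normal replicate 3). Stat2, another subunit of that complex, differed by -0.05 ± 0.25.

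Irf1, an interferon-gamma-induced factor, is named here after its values were seen, as the member with the lowest adjusted p and the 1 of 40 whose groups did not overlap, against 4.19% of all genes with every CAF array below every normal array. The opposite order, every CAF array higher, held for 2.97% of all genes and for 0 of the 40. It read 10.43, 10.16, 10.39, 10.13 and 10.00 on the normal arrays and 9.84, 9.91, 9.56, 9.85 and 9.69 on the CAF arrays. All 5 CAF values lay below the lowest normal value. The difference of -0.45 ± 0.10 had an adjusted p of 0.0676, above the threshold, and was -0.41 without normal replicate 3. On CAF replicate 3, where most members of the list were at their CAF maximum, Irf1 was at its CAF minimum.

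The 13 antiviral effectors had 0 calls, with 12 differences below 0 and 1 above. Ifit1, which binds RNA without a host-type cap, read 6.70, 8.05, 8.49, 6.71 and 6.02 on the normal arrays and 6.20, 6.29, 9.03, 7.34 and 6.43 on the CAF arrays. CAF replicate 3 was the highest of the 10 arrays, normal replicates 3 and 2 followed, and the means of 7.20 and 7.06 lay well within the SDs of 1.03 and 1.19 (difference -0.14 ± 0.64, adjusted p = 0.916). Oasl2, an oligoadenylate synthetase-like protein, read 6.76, 7.98, 9.30, 6.75 and 6.41 in normal and 5.85, 6.34, 7.92, 7.11 and 6.50 in CAF cells. The same 3 arrays were at the top, here with normal replicate 3 first. The difference was -0.70 ± 0.58 (adjusted p = 0.504), -0.23 without normal replicate 3 and -0.99 without CAF replicate 3.

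Other effectors spread less. Oas2 and Oas3, synthetases whose product activates RNase L, differed by -0.31 ± 0.11 and -0.33 ± 0.12 (adjusted p = 0.144 and 0.141). Mx2, a dynamin-like antiviral GTPase, differed by -0.34 ± 0.14, Rsad2 (viperin) by -0.23 ± 0.09, and the exonuclease Isg20 by -0.66 ± 0.22 (adjusted p = 0.195, 0.179 and 0.130). Mx1, Cmpk2 and Samhd1 differed by -0.11, -0.10 and -0.12. Samhd1 has 5 probe sets, all with a lower CAF mean, and their differences ran from -0.46 to -0.07. Ifit2, a relative of Ifit1, was the effector with the higher CAF mean, 8.70 against 8.16, with 9.19 and 9.11 on CAF replicates 3 and 4, and its difference of 0.55 ± 0.23 had an adjusted p of 0.205. Ifit3, which partners Ifit1, was highest on CAF replicate 3 at 8.73 and differed by -0.05 ± 0.28. The Ifit genes thus reached their maximum over the 10 arrays on CAF replicate 3, while 8 of the 13 effectors reached it on normal replicate 3.

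Usp18, the protease that removes Isg15 from proteins and dampens receptor signalling, had one of the widest ranges in the list. It read 6.49, 7.54, 10.12, 7.66 and 6.999 on normal replicates 1 to 5 and 6.82, 7.49, 9.83, 8.04 and 7.87 on CAF replicates 1 to 5. The values on the replicate numbered 3 of each group stood above all others, which span 6.49 to 8.04. The difference of 0.25 ± 0.73 (adjusted p = 0.865) became 0.84 without normal replicate 3 and -0.21 without CAF replicate 3.

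Of the 4 membrane and secreted proteins 0 were called. Rtp4, a receptor transporter protein that restrains viral replication, had the largest spread of all 40 genes (SD 1.24 over the arrays). It read 8.18, 8.76, 11.90, 9.13 and 8.26 on the normal arrays and 7.71, 8.15, 9.58, 8.33 and 7.78 on the CAF arrays, so that normal replicate 3 was highest and CAF replicate 3 next. The normal mean was 1.91-fold that of CAF (-0.94 ± 0.69, adjusted p = 0.447), and the difference was -0.27 without normal replicate 3. A dimmer probe set of Rtp4 differed by -0.25 ± 0.18. Bst2 (tetherin), which holds budding virions at the cell surface, read 10.71, 9.91, 12.03, 10.15 and 9.80 in normal and 9.64, 9.91, 10.66, 9.61 and 9.94 in CAF cells. Replicate 3 was the highest array of each group, and the groups overlapped (-0.57 ± 0.41, adjusted p = 0.436; -0.19 without normal replicate 3). Ifitm3, which blocks viral fusion, differed by -0.18 ± 0.14, and Lgals3bp, a secreted glycoprotein, by -0.20 ± 0.40.

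The 5 interferon-inducible GTPases, which act on vacuoles that hold intracellular pathogens, had 0 calls and a median difference of -0.47. Igtp (Irgm3) read 8.91, 8.58, 10.05, 8.56 and 7.94 on the normal arrays and 8.08, 7.89, 8.45, 7.82 and 7.95 on the CAF arrays. Normal replicate 3 was highest, 4 of the 5 normal values lay above every CAF value, and normal replicate 5 lay among the CAF arrays. The difference was -0.77 ± 0.33 (adjusted p = 0.210), and -0.46 without normal replicate 3. Unadjusted, the exact two-sided permutation p was 0.0476 and the limma p 0.044. An unadjusted limma p under 0.05 was also found for 22.3% of all genes. Gbp2, read by a probe set of the kind that can cross-hybridise with related genes, gave 12.19, 10.51, 11.17, 10.38 and 11.49 in normal and 10.29, 11.14, 10.24, 11.22 and 10.52 in CAF cells. On this probe set its order did not follow the rest: normal replicate 1 was highest and CAF replicate 3 lowest (-0.47 ± 0.36, adjusted p = 0.461). A dimmer probe set of Gbp2 differed by -0.54 ± 0.31. Iigp1 differed by -0.70 ± 0.27 (adjusted p = 0.172) and Gbp3 by 0.02 ± 0.29, while the Irgm1 means were equal within an error of 0.27. A dimmer probe set of Iigp1 differed by -0.21 ± 0.13. Irgm1 was highest on CAF replicate 3, at 11.29 against 9.80 to 10.62 on the other 9 arrays.

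The 3 chemokines, ligands of Cxcr3, a chemokine receptor on T cells, were each highest on normal replicate 3, and 0 were called. Cxcl10 read 6.48, 6.45, 7.64, 6.93 and 6.54 on the normal arrays and 6.45, 6.87, 6.57, 6.56 and 6.79 on the CAF arrays. Outside normal replicate 3 all values lay within 6.45 and 6.93, and the difference was -0.16 ± 0.22 (adjusted p = 0.692). Cxcl9 read 6.04, 6.18, 6.47, 6.16 and 6.08 in normal and 5.90, 6.05, 5.98, 6.13 and 5.84 in CAF cells. In this narrow range the groups overlapped (-0.21 ± 0.09, adjusted p = 0.232). Unadjusted, the exact two-sided permutation p of Cxcl9 was 0.0397 and its limma p 0.054. Cxcl11 had an SD of 0.07 over the arrays, the smallest of the 40 genes. It read 5.755 on normal replicate 3 and 5.745 on normal replicate 5, so its peak hardly stood out. CAF replicate 3, where most members were raised within the CAF group, was not the CAF maximum of any of the 3 chemokines.

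The last 6 genes are ubiquitin ligases, ADP-ribosyltransferases and others, with 0 calls. Trim30a, a ubiquitin ligase that restrains inflammatory signalling, read 9.10, 7.35, 9.001, 7.54 and 6.93 on the normal arrays and 8.87, 7.58, 7.57, 7.92 and 8.05 on the CAF arrays. It was high on normal replicates 1 and 3 and CAF replicate 1, and the group means were equal within error (0.01 ± 0.46, adjusted p = 0.992). The macrophage markers had mean log2 levels of 12.86, 11.96 and 12.77 on these 3 arrays. They were at 12.14 on CAF replicate 5, where Trim30a had its next highest value of 8.05, and at 9.46 to 11.04 on the other 6. Their part in the Trim30a pattern was not tested. Xaf1, a partner and antagonist of an apoptosis inhibitor, read 10.76, 10.90, 11.45, 9.76 and 9.89 in normal and 9.65, 10.29, 11.21, 10.86 and 10.25 in CAF cells. The highest Xaf1 arrays were the replicates numbered 3, and normal replicates 4 and 5 were among the lowest, so the difference was -0.10 ± 0.38 with all normal arrays and 0.62 against normal replicates 4 and 5. Parp9 and Dtx3l, neighbouring genes whose proteins form a complex, and Parp14 differed by -0.24, -0.06 and -0.19, and Ifi35 read 12.94 on normal replicate 3 against 11.29 to 11.77 on the other 9 arrays.

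**Figure D3:**
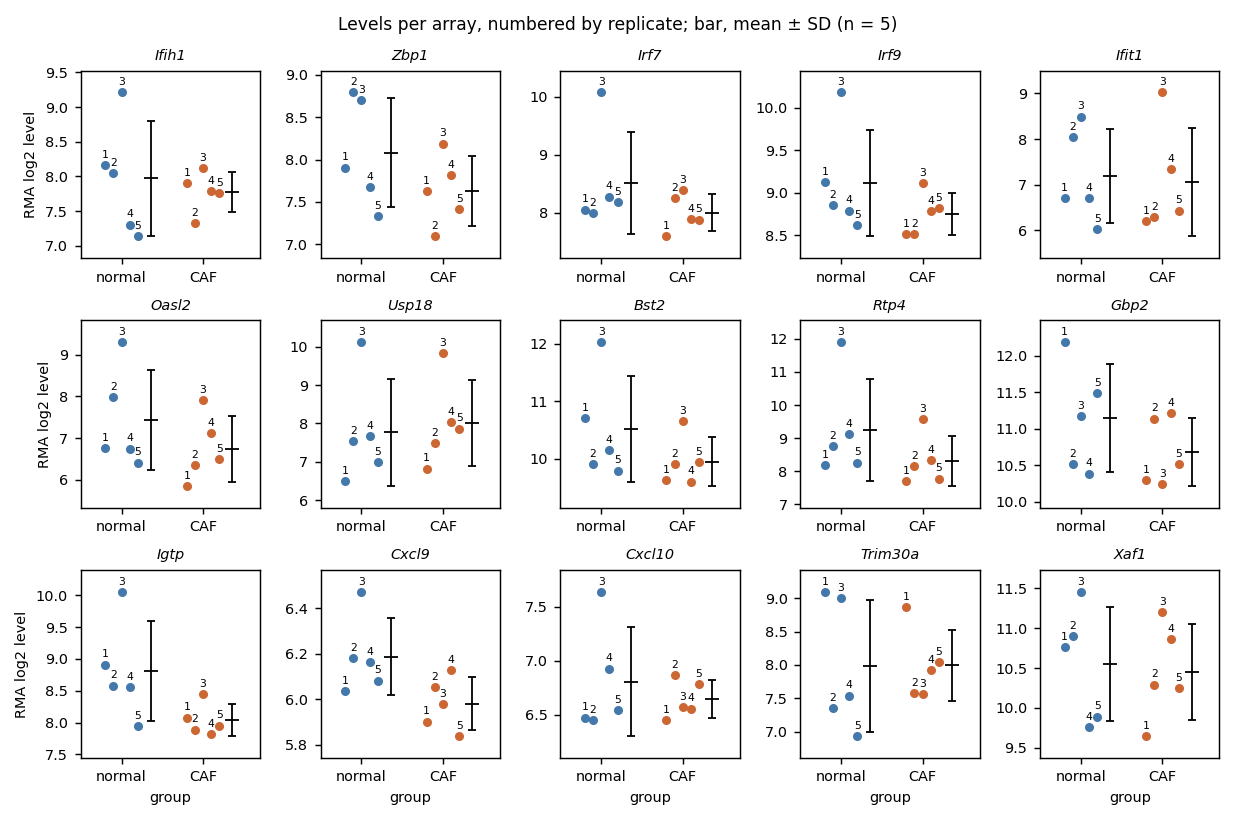
RMA log2 level of 15 interferon-stimulated genes on each array, with points numbered by replicate (blue, normal; orange, CAF) and bars for the mean ± SD of 5 arrays. Normal replicate 3 is the highest normal array in most panels, Zbp1, Gbp2 and Trim30a being the exceptions, and CAF replicate 3 is the highest CAF array for 11 of the 15 genes.

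Covariation was measured on values centred on each group's mean, so that a difference between groups does not enter it. The median Pearson r over the 780 pairs of the 40 genes was 0.42, with 87.1% of pairs above 0 and 42.6% above 0.5. Over all 165483528 pairs of genes on the arrays the median was 0.01, with 50.7% above 0 and 14.8% above 0.5. All pairs share the same 10 arrays, and the correlation describes those arrays. Without normal replicate 3 the median of the 780 pairs was 0.17, with 61.8% above 0, and without the replicate numbered 3 of both groups it was 0.11, against 0.008 and 0.0037 over all gene pairs.

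**Figure D4:**
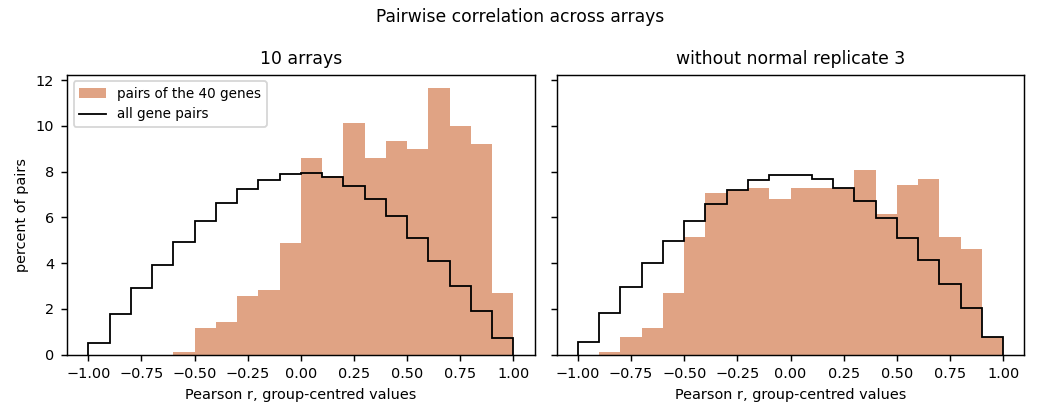
Distribution of the Pearson r of group-centred log2 levels over the 780 pairs of the 40 interferon-stimulated genes (filled) and over all gene pairs (line), as percent of pairs in bins of r, from 10 arrays (left) and without normal replicate 3 (right). The median of the 40 genes moves from 0.42 to 0.17, and that of all gene pairs is 0.01 in both panels.

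Among pairs, Oasl2 with Parp9 had the highest r at 0.970, followed by Usp18 with Rtp4 at 0.953, Irf9 with Bst2 at 0.951, Bst2 with Igtp at 0.945 and Irf7 with Rtp4 at 0.940. The lowest was Irf1 with Ifit2 at -0.508. Against the mean standardised profile of the other 39 genes, 28 of the 40 had an r above 0.5. Oasl2 (0.942), Irf9 (0.941), Oas2 (0.939) and Parp9 (0.937) followed the others most closely. Gbp2 (-0.055), Cxcl11 (0.067) and Ifit2 (0.106) followed them least, and Gbp2 was the 1 gene below 0. These are descriptions over the same 10 arrays, with no test.

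The genes were then set against Irf7 in a limma fit over 18192 genes with group as a term, which gives the change in a gene's log2 level per unit of the Irf7 log2 level. Among all genes 0 slopes were called at an adjusted p under 0.05 (0%), and 1977 had an unadjusted p under 0.05. The slope was positive for 38 of the other 39 interferon-stimulated genes, against 45.9% of all genes, and 18 of the 39 had a positive slope at an unadjusted p under 0.05, against 6.6% of all genes. The median slope was 0.24 for the 39 genes and -0.01 for all genes. Rtp4 had a slope of 1.72 ± 0.21 with an adjusted p of 0.0514, and Ifi35 one of 0.65 ± 0.09 with an adjusted p of 0.0768. Usp18 had a slope of 1.64 ± 0.33 (adjusted p = 0.234), Oasl2 of 1.19 ± 0.33 and Bst2 of 0.96 ± 0.17 (adjusted p = 0.452 and 0.156). Ifitm3 was the 1 gene with a slope below 0, at -0.02 ± 0.12. Markers of neutrophils had steeper slopes, with a median of 2.06 over 9 genes and 7 of them at an unadjusted p under 0.05. An unadjusted p under 0.05 was also found for 5 of 14 fibroblast markers and 3 of 10 epithelial markers (median slopes -0.30 and 0.06). These counts take slopes of either sign, as do the 1977 of all 18192 genes. Their part in the slopes of the interferon-stimulated genes was not tested. Without normal replicate 3, which holds the high Irf7 value, 25 of the 39 slopes were positive against 58.2% of all genes, and 2 of the 39 were positive at an unadjusted p under 0.05 against 2.13% of all genes. The slopes named above were then 1.83 ± 0.62 for Rtp4, 0.22 ± 0.21 for Ifi35 and 2.50 ± 0.93 for Usp18. Those of Oasl2, Bst2 and Ifitm3 were 1.15 ± 0.97, 0.89 ± 0.50 and -0.66 ± 0.26. Without replicate 3 of both groups 16 of the 39 slopes were positive against 52.9% of all genes, and the median of the 39 turned to -0.09. Without CAF replicate 3 instead, 28 genes were called (0.154%), 1 of the 39 among them, and without CAF replicate 1 there were 11. The count of calls also moved with the fit. It was 15 genes (0.0825%) with the mean of a gene's probe sets, 2 of the 39 among them, and 15 (0.0825%) with an intensity trend and robust variances, 1 of the 39 among them. It was 31 (0.17%) with no group term, with 4 of the 39, and 1222 (6.72%) with the label code as a term, with 8 of the 39, all with positive slopes.

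Among genes outside the list, 10 were taken for their r with the mean standardised profile of the 40 genes, over the 10 arrays and after centring on group means. The closest were Zscan21 (r = 0.954), a zinc finger gene, Irgm2 (0.948), a GTPase of the Igtp family, and Phf11d (0.936). Lmo1, Hyal5, Wfdc21, Scgb1a1, Acap1, Ppfia3 and 5430405H02Rik followed, down to an r of 0.902. Hyal5, Scgb1a1 and 5430405H02Rik were at low levels, with highest values of 5.00, 5.21 and 5.88. Without normal replicate 3 the r of the 10 genes ran from 0.603 for Acap1 to 0.892 for Hyal5. Irgm2 read 8.88, 8.36, 10.01, 8.05 and 7.69 on the normal arrays and 7.53, 7.75, 8.49, 7.87 and 7.67 on the CAF arrays, with replicate 3 highest in each group, as for Igtp. Of the 10 genes, 9 were highest on normal replicate 3, and Ppfia3 on CAF replicate 3. In all, 91 genes outside the list (0.501%) had an r above 0.8, and 16 of the 40 members did.

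Markers of other cells were set beside the pattern, because normal replicate 3 stood apart in them as well. Of the 9 neutrophil markers measured, 8 were highest on normal replicate 3, against 16.5% of all genes. S100a9, a calcium-binding protein of granulocytes, read 14.29 on that array and 5.27 to 7.05 on the other 9, and the granule genes Ngp, Ltf, Mpo and Elane read 12.29, 10.90, 9.83 and 8.67 there. The summed linear level of the 9 markers ran from 921 to 54442 over the normal arrays and from 1532 to 7650 over the CAF arrays, and no marker has a value of 0 on this scale. Cxcr2 and Csf3r, receptors of mature neutrophils, read 6.11 and 6.68 on normal replicate 3, against highest values of 6.11 and 7.47 on the other arrays. The part of these cells in the high values of normal replicate 3 was not tested. On CAF replicate 3 the neutrophil markers averaged 6.91, within the CAF range of 6.64 to 7.13, and the macrophage markers were at their CAF minimum of 10.39. The 13 lymphocyte markers averaged between 6.14 and 6.33 on every array, and the 8 markers of plasmacytoid dendritic cells, a list that also holds Bst2, between 7.84 and 8.36. The 10 epithelial markers averaged 7.71 on normal replicate 3 and 6.47 to 7.42 on the other arrays. On that array 5 of the 10 were highest, against 16.5% of all genes. The 6 mesothelial markers averaged 9.55 there, within the normal range of 6.18 to 10.23, and 6.99 to 9.03 on the CAF arrays, and none was highest on normal replicate 3. The 14 fibroblast markers were at their normal-group minimum on that array, at 12.09 against 12.52 to 13.72.

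**Figure D5:**
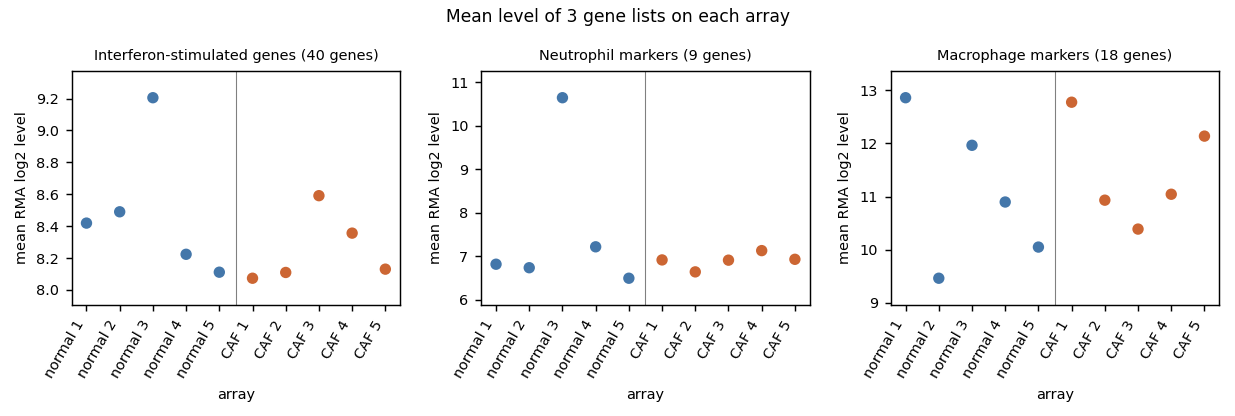
Mean RMA log2 level of the 40 interferon-stimulated genes, 9 neutrophil markers and 18 macrophage markers on each array (blue, normal; orange, CAF). The first and second lists peak on normal replicate 3 at 9.21 and 10.65, CAF replicate 3 is the highest CAF array of the first list at 8.59, and the third list is highest on replicate 1 of each group.

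Other lists of the interferon pathway gave 1 call between the groups. Of 10 interferon genes measured, 0 were called, and the list mean lay between 5.84 and 6.19 on every array. The median gene had a mean level of 8.11, so these low levels cannot be told from background hybridisation. The CAF mean was the lower one for all 10 of them, against 57.3% of all genes. Their median difference was -0.05, against -0.04 over all genes. Ifnb1, the interferon that fibroblasts release, averaged 5.99 ± 0.04 in normal and 5.95 ± 0.13 in CAF cells (SD, n = 5). On normal replicate 3 it read 5.97 and on CAF replicate 3 5.99, within the range of 5.83 to 6.16 over the 10 arrays. Ifna9 and Ifna2 had the smallest p of the ligands, with differences of -0.28 ± 0.10 and -0.32 ± 0.11 (adjusted p = 0.135 and 0.148). None of the 10 ligand genes was highest on normal replicate 3, against 16.5% of all genes. The CAF maximum of 5 lay on CAF replicate 3, against 26.9% of all genes.

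Of 14 receptors, Janus kinases and related signalling genes, 0 were called, with 10 above 0 and a median difference of 0.22. Ifngr2, a chain of the interferon gamma receptor, averaged 11.47 ± 0.13 in normal and 11.94 ± 0.20 in CAF cells (SD, n = 5; difference 0.47 ± 0.11, adjusted p = 0.0684). The type I receptor chains Ifnar1 and Ifnar2 differed by 0.32 ± 0.13 and 0.22 ± 0.20 (adjusted p = 0.202 and 0.537). None of the 14 genes was highest on normal replicate 3, against 16.5% of all genes. Of 17 further genes of nucleic acid sensing 0 were called. Mavs, the mitochondrial adaptor of the RNA sensors, had a difference of 0.51 ± 0.12 (adjusted p = 0.0670), and Tbk1, the kinase that activates interferon regulatory factors, one of 0.25 ± 0.07 (adjusted p = 0.103).

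Of 39 other interferon-stimulated genes outside the list, 1 was called, against 0.753% of all genes. Ifi203, of the interferon-inducible family that binds DNA, was lower in CAF cells: it read 7.64, 7.72, 7.55, 7.68 and 7.63 on the normal arrays and 7.30, 7.36, 7.38, 7.25 and 7.24 on the CAF arrays. The groups did not overlap, and the difference was -0.34 ± 0.06 (adjusted p = 0.0483). The call was lost in 16 of the 18 alternatives run, which gave differences of -0.38 to -0.32 with adjusted p from 0.0354 to 0.305, among them leaving out any 1 normal array or CAF replicate 1, 3, 4 or 5. Unlike most of the 40 genes, Ifi203 was lowest of the normal arrays on replicate 3. Uba7, the enzyme that activates Isg15, had a difference of -0.29 ± 0.08 (adjusted p = 0.0932). Of these 39 genes, 16 were highest on normal replicate 3, against 16.5% of all genes.

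Of 12 genes of MHC class I presentation, another interferon-responsive group, 0 were called. On normal replicate 3, 6 of them were highest, against 16.5% of all genes. None had its CAF maximum on CAF replicate 3, against 26.9% of all genes. H2-M3, a presenting molecule for formylated peptides, and Psme1, a proteasome activator, differed by -0.36 ± 0.20 and -0.32 ± 0.19 (adjusted p = 0.306 and 0.341). The light chain B2m averaged 14.09 ± 0.33 and 14.15 ± 0.18, and the peptide transporter Tap1 8.54 ± 0.57 and 8.43 ± 0.16, in normal and CAF cells (SD, n = 5). Tap1 read 8.71 on normal replicate 3, below its values of 8.89 and 9.05 on normal replicates 1 and 2.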

How the data were processed

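Levels are the log2 values that the authors deposited for 10 arrays, made with RMA in Affymetrix Expression Console per the submitters' processing notes, which also name limma. Versions and a detection filter are not given in the sources used here. Of 45037 probe sets that are no controls, the platform annotation gives 34945 a single gene symbol, 932 several and 9160 none. Single-gene probe sets gave 18193 genes, each by its brightest probe set. RMA normalises probe signals between arrays before it summarises them, so levels are relative.

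Groups were compared in limma 3.58.1 (R 4.3.3) over all genes, with Benjamini-Hochberg adjustment and group as the term; a second fit took the slope on Irf7. The fits were tested on simulated data. The group fit recovered 18 of 50 genes shifted by 0.5 log2, 37 of 50 shifted by 1 and 46 of 50 shifted by 2. The slope fit recovered 25 of 50 genes with a slope of 0.5 and 40 of 50 with a slope of 1. Small changes can thus be missed. The changed genes were drawn at random from all genes, with noise independent between genes. The 40 genes spread more widely (median SD 0.46 against 0.22 for all genes) and vary together. The recovered counts thus do not hold for them, and larger changes in widely spread members can be missed too. Correlations are Pearson r on group-centred values. The smallest exact permutation p for 5 against 5 arrays is 0.00794. Per-array values are given for Irf7, Ifit1 and the 2 members of each role group with the largest SD over the arrays. The rule for other pathway lists names the 2 genes with the smallest p and a few fixed genes. An item of that rule is not reported here. The members and lists were chosen with earlier results of these data known. Arrays are labelled as biological replicates, and replicate numbers were not found to pair normal with CAF arrays.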

Additional observations from a re-analysis of the deposited data

Results flagged for a closer look

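Among the 15 genes with values per array, each of 30 groups of 5 arrays was examined for a value far from the others, of which chance gives about 1 in 20. The gap between the highest normal value of Irf7, on replicate 3, and the next was 0.863 of the normal range, above the critical value of 0.71 for 5 samples. The same held for Rtp4, where normal replicate 3 lay apart by 0.744 of the range. Usp18, Bst2 and Oasl2 were also highest on that array but did not pass the critical value.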

How the results depend on the processing

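No interferon-stimulated gene was called between the groups under any of the 19 alternatives run, which changed the scaling, the genes tested, the probe sets, the fit or the arrays. Of 298 values of the 15 named differences under the alternatives, 265 kept their sign and 33 turned, and 0 were called. With the label code as a term, which equals the comparison with the normal ls arrays only, the differences turned to 0.56 for Ifih1, 0.13 for Zbp1, 0.046 for Irf9, 0.69 for Ifit1, 0.16 for Oasl2 and 0.62 for Xaf1. With the normal vs arrays only they turned to -0.041 for Usp18 and -0.49 for Trim30a, which was -0.033 after quantile normalisation. Leaving out arrays, among them replicate 3 of both groups, which was chosen after seeing the data, gave -0.40 to 0.12 for Ifih1, -0.63 to 0.19 for Ifit1, -0.21 to 0.84 for Usp18, -0.25 to 0.066 for Cxcl10, -0.25 to 0.37 for Trim30a and -0.30 to 0.12 for Xaf1. The median difference ran from -0.32 to -0.07 with 1 array left out and was 0.01 against the normal ls arrays. The median pairwise r ran from 0.17 without normal replicate 3 to 0.48 without normal replicate 2, and was 0.11 without replicate 3 of both groups, 0.36 with Spearman's rho and 0.35 when centred on the label code too. Genes called for their slope on Irf7 numbered 0 with all arrays and 0 to 28 with 1 array left out (28 without CAF replicate 3), 15 with the mean of the probe sets, 15 with trend and robust variances, 31 with no group term, 1222 with the label code as a term, and 0 with Irf9 or, added after seeing the data, Usp18 in place of Irf7. Calls between groups over all genes were 137, and 36 after quantile normalisation, 50 of 9096 genes above the median level, 46 with trend and robust variances, 95 against the vs arrays, 1 against the ls arrays, 0 with the label code as a term and 0 to 166 with 1 array left out. The cause of these changes was not tested. Replicate numbers did not pair the arrays: same-numbered arrays correlated at r between -0.53 and 0.34 in their deviations from the group means, and with the replicate number as a block 0 members and 0 of all genes were called in either fit. A further planned regulator in place of Irf7, besides Irf9, was not run. The number of arrays limits the precision, and the differences of the named genes have standard errors of up to 0.73.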
